A study of Mus musculus with 12 samples.

Results

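The ErbB family was followed in mouse mammary tissue through 10 genes, the 4 receptors Egfr, Erbb2, Erbb3 and Erbb4 and the 6 ligands Tgfa, Hbegf, Btc, Ereg, Egf and Nrg1. They were chosen by name, among 23704 gene names in the tables of the first experiment and 23691 in those of the second, and rows that shared a name were summed. A row of its own in all 12 samples was found for 9 of the 10 genes. The exception was Erbb3, which in the first experiment stood only in a row joined with Mir6917, a 61-base microRNA gene that overlaps none of the exons of Erbb3 and lies within the gene. That joined row was used for Erbb3, so the 2 experiments do not hold exactly the same feature for it.

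RNA-seq was performed on 12 samples in 4 groups of 3 replicates, from 2 experiments, and all mice were females of 12 weeks. The first experiment compared the abdominal and inguinal glands of wild type FVB mice, pooled from 3 mice per replicate (Normal), with thoracic gland tumors of untreated MMTV-PyVT transgenic mice on the FVB/N background, 1 mouse per replicate (Tumor). The second compared tumors of the same transgenic strain after injection of DMSO or of C646, an inhibitor of the histone acetyltransferase p300, with the biggest tumors of 3 mice in each group. The dose label was 1 mg/kg for both agents. MMTV-PyVT mice carry the polyoma virus middle T antigen behind the mouse mammary tumor virus promoter, which is active mainly in mammary epithelium, so the tumors of 3 of the 4 groups share this oncogene and the normal glands lack it. Between Normal and Tumor the tissue, the position of the gland and the pooling of mice all changed at once and cannot be told apart.

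The ErbB receptors are tyrosine kinases of the plasma membrane that work in pairs. Egfr binds the EGF-like ligands. Erbb2 has no known soluble ligand and is the preferred partner of the others, Erbb3 binds neuregulins but has little kinase activity of its own, and Erbb4 binds neuregulins and some EGF-like ligands. The ligands are made as membrane proteins and are shed by metalloproteases of the ADAM family. The activated receptors recruit the adaptors Grb2 and Shc1 and the PI3 kinase, which turn on the Ras, MAP kinase and Akt cascades, and these induce their own inhibitors of the Sprouty and dual-specificity phosphatase families. In the mammary gland, amphiregulin (Areg) acting on Egfr is needed for duct growth in puberty, and middle T antigen engages the same adaptors without any ErbB ligand.

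The values were FPKM, fragments scaled to the length of the gene and to the size of the library, which can be compared between genes of different length. Differences were tested within each experiment with limma on log2(FPKM + 0.03125). A gene was tested when 3 or more of the 6 samples reached 1 FPKM, and it was called at an adjusted p under 0.05 over all genes tested. Between 12138 and 14296 rows per sample reached 1 FPKM. The number of reads was not in the files, so FPKM near 0 have unknown counting error. All samples came from bulk tissue, in which fewer cells of a type and less RNA per cell cannot be told apart.

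The marker genes of other cell types moved strongly with the first comparison. The summed FPKM of 10 luminal epithelial markers was 522 to 1075 in the normal glands and 3615 to 4923 in the tumors, where 9 of the 10 were called higher and Krt19 was not called. All 8 adipocyte markers and all 8 lymphocyte markers were called lower. Their sums fell from 18060 to 22994 FPKM in the normal glands to 98.5 to 1336 in the tumors for adipocytes, and from 336 to 427 to 1.01 to 2.43 for lymphocytes, with Ms4a1 at 0 in all tumors. Apart from Cd3g, the lymphocyte markers reached 1 FPKM in the normal glands only and could not be called higher. The 6 skeletal muscle markers were all called higher, with sums of 10.9 to 95.5 FPKM in the normal glands and 1845 to 5643 in the tumors. Of 9 basal markers, Krt5 and Krt17 were not called, Krt14 and Trp63 were called higher and the contractile genes Acta2, Myh11, Cnn1, Oxtr and Mylk were called lower. Also lower were 7 of 8 fibroblast, 7 of 7 endothelial and 6 of 7 macrophage markers. The macrophage marker Cd14 was called higher instead, with 30.9 to 48.7 FPKM in the normal glands and 134 to 185 in the tumors. Of 6 Schwann cell genes, a cell type that needs Erbb3, 3 were called lower and 3 higher, among the latter Sox10 at a mean of 17.9 FPKM in the normal glands and 165 in the tumors. The part of these shifts in the differences of the ErbB genes and of the other pathway genes was not tested. Values after scaling to the luminal markers are given for the members tested only.

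The promoters of 4 genes whose transcripts behaved differently in the first comparison are printed here, Egfr, which was not called, Erbb2 and Egf, which were higher in tumors, and Areg, which was lower. They are RefSeq sequences of GRCm38.p6, 5′ to 3′ on the strand of the gene, from 250 bases before to 50 bases after the gene start. Capitals mark matches on either strand to a TATA box (TATAAA), a GC box (GGGCGG), a cyclic AMP response element (TGACGTCA) or a CCAAT box (CCAAT), none of which overlap here.
Egfr, chr11:16751953-16752252, plus strand: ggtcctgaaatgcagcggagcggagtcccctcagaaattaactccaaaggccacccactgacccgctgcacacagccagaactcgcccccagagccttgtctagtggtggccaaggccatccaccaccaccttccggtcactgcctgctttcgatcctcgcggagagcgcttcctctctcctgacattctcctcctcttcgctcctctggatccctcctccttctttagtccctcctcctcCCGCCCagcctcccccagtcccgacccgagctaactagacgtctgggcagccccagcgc
Erbb2, chr11:98412234-98412533, plus strand: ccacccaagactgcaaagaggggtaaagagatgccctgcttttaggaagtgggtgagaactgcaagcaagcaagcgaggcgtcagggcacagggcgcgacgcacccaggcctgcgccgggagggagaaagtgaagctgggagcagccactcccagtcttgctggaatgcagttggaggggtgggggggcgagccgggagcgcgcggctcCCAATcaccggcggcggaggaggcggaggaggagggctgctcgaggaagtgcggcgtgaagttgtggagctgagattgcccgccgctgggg
Egf, chr3:129755273-129755572, minus strand: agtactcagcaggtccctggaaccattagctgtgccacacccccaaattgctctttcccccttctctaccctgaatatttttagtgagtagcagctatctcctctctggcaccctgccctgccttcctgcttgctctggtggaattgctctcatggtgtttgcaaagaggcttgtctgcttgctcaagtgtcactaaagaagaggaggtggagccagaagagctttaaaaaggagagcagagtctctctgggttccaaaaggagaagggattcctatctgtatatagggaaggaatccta
Areg, chr5:91139349-91139648, plus strand: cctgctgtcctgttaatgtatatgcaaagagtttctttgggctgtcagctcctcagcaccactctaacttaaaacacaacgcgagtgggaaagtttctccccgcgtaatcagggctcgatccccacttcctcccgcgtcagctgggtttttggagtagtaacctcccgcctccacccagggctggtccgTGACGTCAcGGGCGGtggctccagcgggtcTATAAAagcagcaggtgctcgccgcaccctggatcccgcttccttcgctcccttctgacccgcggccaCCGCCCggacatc

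Among 32851 promoters of this length, 13.6% held the TATA box, 35.7% the GC box, 1.79% the cyclic AMP response element and 37.4% the CCAAT box. Areg held 3 of the 4 motifs, with the response element 61 bases and the TATA box 31 bases before the start. Egfr held a GC box 9 bases before the start and no TATA box, and Erbb2 held a CCAAT box 41 bases before it. The promoter printed for Egf, the first of 2, held none of the 4 motifs. The promoters of Egfr and Erbb2 were rich in G and C, with 62.3% and 66%, against 49% for Egf and a median of 52.7% over all promoters. RefSeq promoters were also matched for Erbb4, Tgfa, Btc and Nrg4. Those of Erbb3, Hbegf, Ereg and Nrg1 were not used here.

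**Figure D1:**
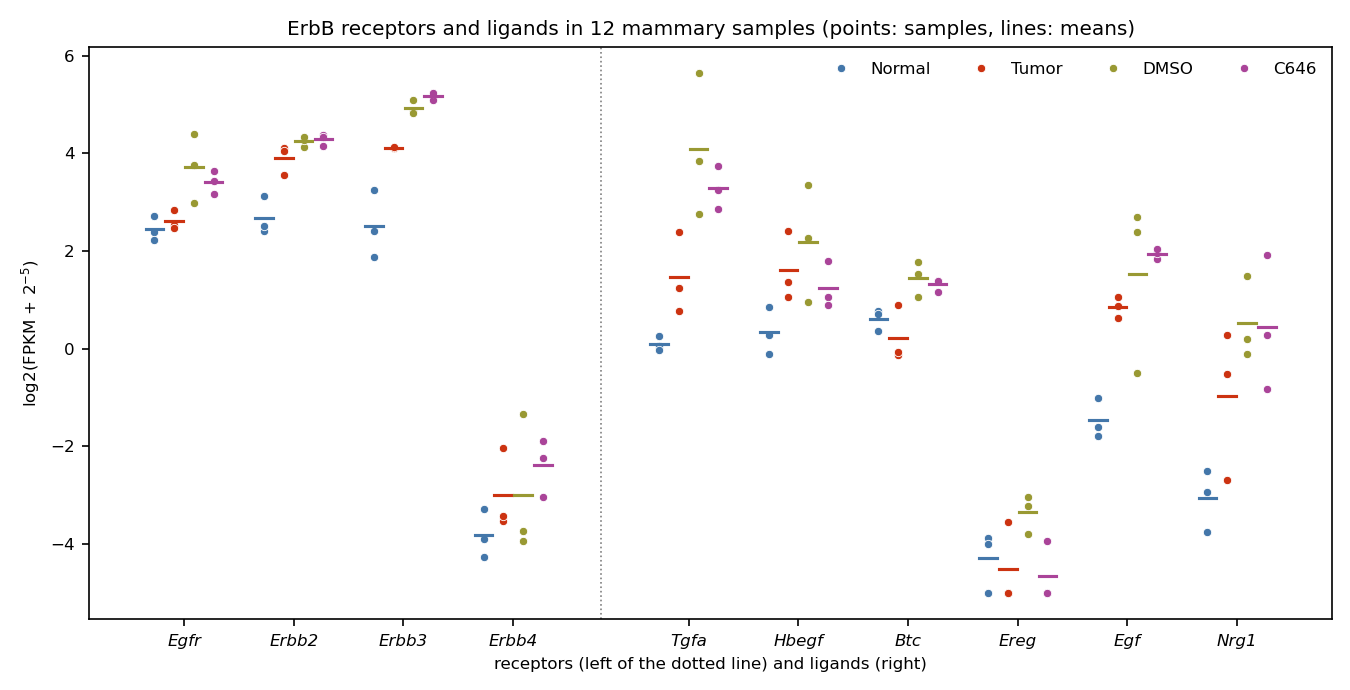
Levels of the 10 genes as log2(FPKM + 0.03125) on the vertical axis, with 1 point per sample, a line at each group mean, and receptors to the left of the dotted line. In FPKM as deposited, Erbb2 and Erbb3 were higher in all 3 tumors than in any normal gland (both turned lower per luminal marker sum), Egfr overlapped between them, and Erbb4 and Ereg lay near the floor of the scale in all 4 groups.

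Of the 10 genes, 7 could be tested between Tumor and Normal, and 5 of these were called higher and 0 lower. Over all 13031 genes tested, 28.8% were called higher and 31.7% lower, so calls in either direction were common. The 5 genes were Erbb2, Erbb3, Tgfa, Hbegf and Egf, and Egfr and Btc were not called. The same 5 were higher without overlap between the groups, as 33.1% of all genes were, while 35.8% were lower without overlap and no member was. After scaling to luminal markers 0 members were called higher and 6 lower, and 2.21% of all genes were called higher and 90.2% lower, so the members' count was near that of the genes at large. Egf reached 1 FPKM only in the tumors, so it could enter the test only by being higher there. Erbb4, Ereg and Nrg1 were under the filter.

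Erbb2, the co-receptor of the family, had 8.70, 5.25 and 5.70 FPKM in the normal glands and 17.2, 11.6 and 16.5 in the tumors. The groups did not overlap. The mean rose from 6.55 ± 1.88 to 15.1 ± 3.03 FPKM (SD, n = 3), a log2 difference of 1.22 with a standard error of 0.25 (limma, adjusted p = 0.0042).

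Erbb3, the neuregulin receptor that signals through PI3 kinase, had 9.44, 3.66 and 5.27 FPKM in the normal glands and 17.1, 17.2 and 17.4 in the tumors. The 3 tumors were almost equal, while the normal glands differed 2.58-fold between the highest and the lowest. The log2 difference was 1.60 with a standard error of 0.32 (limma, adjusted p = 0.0039). Normal replicate 1, the highest for both Erbb2 and Erbb3, was also the normal gland with the highest luminal marker sum, 1075 FPKM.

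Egfr, the receptor of the EGF-like ligands, differed by less than the spread between samples. It had 5.17, 4.67 and 6.53 FPKM in the normal glands and 5.78, 5.52 and 7.11 in the tumors, and the ranges overlapped. The log2 difference was 0.17 with a 95% interval from -0.28 to 0.63 (limma, adjusted p = 0.46). A rise of the size of Erbb2 or Erbb3 lies outside that interval. Under quantile normalization the Egfr difference was larger, at 0.50, and still not called (limma, adjusted p = 0.057).

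Erbb4 was barely detected. It had 0.036, 0.021 and 0.072 FPKM in the normal glands and 0.215, 0.055 and 0.062 in the tumors, and no sample of the second experiment exceeded 0.367. The groups overlapped and the exact two-sided permutation test gave p = 0.3, where the smallest p that 3 against 3 allows is 0.1. The gene spans 1076 kb on chromosome 1.

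Scaling each sample to its luminal marker sum, an alternative chosen after seeing the data, turned the direction of the receptors. The log2 difference of Erbb2 became -1.29 (limma, adjusted p = 0.0047), that of Erbb3 -0.91 (adjusted p = 0.047) and that of Egfr -2.33 (adjusted p = 7.9e-07). Relative to the library, Erbb2 and Erbb3 were higher in tumors, and relative to the luminal keratins, claudins and Epcam they were lower. On that scale the median log2 difference of all genes was -2.52, so both receptors lay above the median gene and Egfr lay near it.

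The muscle content of the untreated tumors was also set beside these values. In DMSO replicates 1 and 2 and C646 replicate 2, where the 6 muscle markers summed to only 0.774, 1.69 and 2.33 FPKM, Erbb2 had 17.4, 19.3 and 17.8 FPKM and Erbb3 29.3, 34.2 and 33.8. DMSO replicate 3 and C646 replicates 1 and 3, with muscle sums of 433, 414 and 368 FPKM, had 20.1, 20.7 and 20.1 FPKM of Erbb2. Their Erbb3 was 28.2, 36.0 and 37.6 FPKM. At low and at higher muscle sums these levels lay above those of the untreated tumors, although the 2 experiments were normalized in separate tables. The part of muscle content in these values was not tested.

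Tgfa, a ligand of Egfr, had 1.00, 0.945 and 1.17 FPKM in the normal glands and 1.67, 2.35 and 5.23 in the tumors. The log2 difference was 1.38 with a standard error of 0.42 (limma, adjusted p = 0.024). Hbegf, a ligand of Egfr and Erbb4, had 1.18, 0.894 and 1.77 FPKM and then 2.53, 2.05 and 5.27, with a difference of 1.27 and a standard error of 0.42 (adjusted p = 0.032). Neither gene overlapped between the groups, and Tumor replicate 3 was the highest for both. Both calls were fragile. Without Normal replicate 1 or 2 the adjusted p was 0.063 or 0.070 for Tgfa and 0.081 or 0.103 for Hbegf, without Normal replicate 3 it was 0.053 for Tgfa, and without Tumor replicate 3 it was 0.085 for Hbegf.

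Egf, the ligand that gave Egfr its name, had the largest difference among the members tested. It had 0.467, 0.30 and 0.258 FPKM in the normal glands and 1.81, 1.52 and 2.05 in the tumors. The log2 difference was 2.32 with a standard error of 0.35 (limma, adjusted p = 0.0012), and it was -0.079 (adjusted p = 0.91) after scaling to the luminal markers. On that scale Tgfa and Hbegf were lower, by -1.08 (adjusted p = 0.0498) and -1.20 (adjusted p = 0.026).

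Btc, which binds Egfr and Erbb4, had 1.67, 1.25 and 1.61 FPKM in the normal glands and 0.879, 0.919 and 1.82 in the tumors. A pair of tumors lay below the normal glands and Tumor replicate 3 above them. The log2 difference was -0.39 with a 95% interval from -1.22 to 0.44 (limma, adjusted p = 0.37). It changed sign to 0.49 under quantile normalization (adjusted p = 0.253), and after scaling to the luminal markers it was -2.83 (adjusted p = 1.2e-06).

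Nrg1, a ligand of Erbb3 and Erbb4, varied 9.45-fold between tumors. It had 0.101, 0.145 and 0.043 FPKM in the normal glands and 1.18, 0.125 and 0.666 in the tumors, so Tumor replicate 2 lay within the range of the normal glands. The exact two-sided permutation test gave p = 0.2, and the fit with no filter an adjusted p of 0.069 (limma) for a log2 difference of 2.08. Ereg, a ligand of Egfr and Erbb4, was listed at 0 in Normal replicate 2 and in Tumor replicates 1 and 2, and had at most 0.054 FPKM in the other samples of this comparison. Its values of 0.037 and 0.031 FPKM in Normal replicates 1 and 3 differed 1.17-fold, close to the relative depth of 1.18 read from low FPKM of this pair, as equal small numbers of reads would give.

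**Figure D2:**
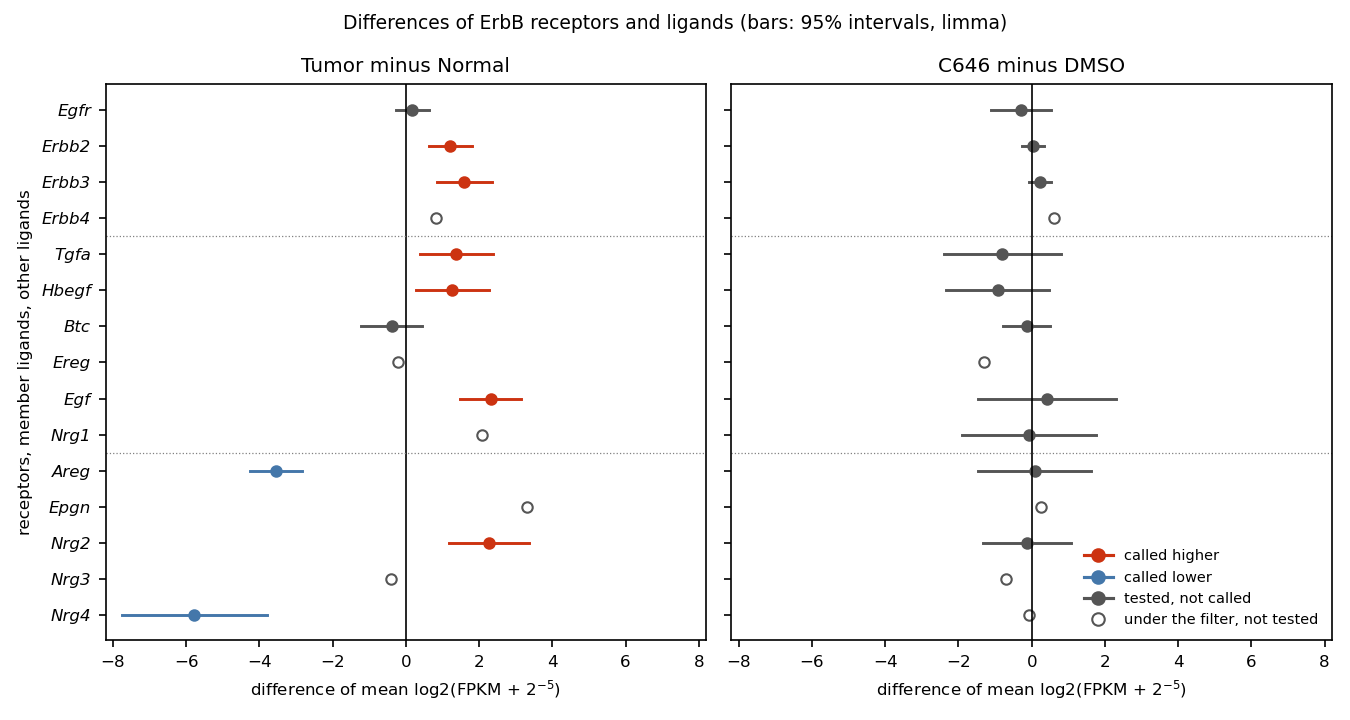
Differences of mean log2(FPKM + 0.03125) between Tumor and Normal (left) and C646 and DMSO (right) for the 10 genes and 5 further ligands, with 95% intervals from limma as bars and open points for genes under the filter. Red points are genes called higher, blue points genes called lower, and in the right panel no gene was called. The 5 members in red on the left turned negative after scaling to the luminal markers, on which 90.2% of all genes were called lower.

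The ligands with the highest levels in the normal gland were not among the 10 genes, and both were lower in tumors. Nrg4, a neuregulin that binds Erbb4 and is made by adipose tissue, had 33.5, 43.2 and 33.0 FPKM in the normal glands and 2.26, 0.132 and 0.744 in the tumors, a log2 difference of -5.78 with a standard error of 0.84 (limma, adjusted p = 9.3e-04). Areg had 19.5, 20.1 and 11.9 FPKM and then 1.14, 1.18 and 2.03, a difference of -3.55 with a standard error of 0.30 (adjusted p = 9.5e-05). Both groups were fully separated for each gene. The tumor with the highest Nrg4, replicate 1, was also the one with the highest adipocyte marker sum, 1336 FPKM. Tumor replicate 2 had a higher adipocyte sum than replicate 3, 108 against 98.5 FPKM, but lower Nrg4. In the second experiment the adipocyte sums were 12.2 to 53.4 FPKM after DMSO and 64.2 to 323 after C646, with mean Nrg4 of 0.840 and 0.847 FPKM. The part of adipocyte content in the Nrg4 values was not tested.

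Nrg2, a further neuregulin, moved in the opposite direction. It had 0.863, 0.936 and 0.85 FPKM in the normal glands and 3.41, 2.61 and 9.54 in the tumors, a log2 difference of 2.28 with a standard error of 0.47 (limma, adjusted p = 0.0044). Like Egf, it reached 1 FPKM in the tumors only and so could be called in no other direction. Epgn, an Egfr ligand under the filter, had at most 0.087 FPKM in the normal glands and 0.595, 0.524 and 1.03 in the tumors, with no overlap. Nrg3 was listed at 0 in 2 normal glands and all 3 tumors, with 0.040 FPKM in Normal replicate 2.

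The make-up of the ligand pool differed accordingly, and all values of this paragraph are descriptions with no test. Nrg4 and Areg together held 90.7%, 93.3% and 88.6% of the summed FPKM of 11 ErbB ligands in the normal glands and 22.0%, 11.5% and 9.74% in the tumors. The 6 member ligands held 5.21% to 9.62% in the normal glands and 52.1% to 61.1% in the tumors. Nrg2 was the leading ligand in each untreated tumor, with 22.0%, 22.9% and 33.6%, followed by Hbegf in replicates 1 and 3 and by Tgfa in replicate 2. The pool itself was smaller, with 58.3, 67.8 and 50.7 FPKM in the normal glands and 15.5, 11.4 and 28.4 in the tumors.

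**Figure D3:**
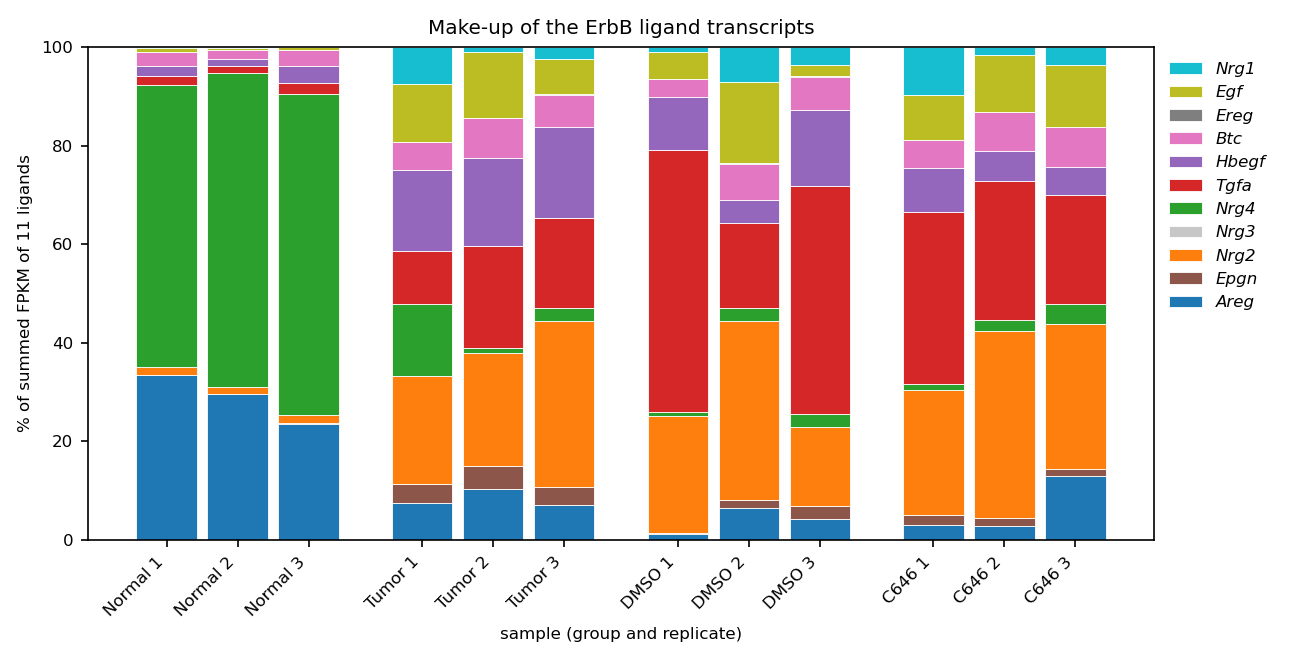
Share of each of 11 ErbB ligands in their summed FPKM (vertical axis, percent) in each of the 12 samples. Nrg4 (green) and Areg (blue) filled 88.6% to 93.3% of the bars of the normal glands, while Nrg2 (orange) or Tgfa (red) led in every tumor.

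Areg, Ereg, Epgn and Btc lie side by side on chromosome 5, within 376 kb of GRCm38, chr5:91027464-91402994. The 4 neighbours did not move together. Areg was lower in tumors, Btc was not called, Epgn had its higher values in the 3 tumors but stayed under the filter, and Ereg was nearly silent in both groups.

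Within a sample the receptor shares do not depend on the scaling between samples. Egfr held 22.2%, 34.3% and 37.1% of the summed receptor FPKM in the normal glands and 14.3%, 16.04% and 17.3% in the tumors, and the groups did not overlap. Erbb3 held 40.4%, 26.9% and 30.0% and then 42.4%, 49.99% and 42.4%, again without overlap. The difference of the mean shares, tumor minus normal, was -15.3 percentage points for Egfr and 12.5 for Erbb3, each with p = 0.1 in the exact two-sided permutation test, the smallest that 3 against 3 allows, and 0.2 after adjustment over the 4 receptors. Erbb2 held 36.1% ± 3.24 and 38.9% ± 4.58 (SD, n = 3; exact p = 0.4), and Erbb4 0.239% and 0.281%. The ratio of Erbb3 to Egfr was 1.82, 0.784 and 0.808 in the normal glands and 2.96, 3.12 and 2.45 in the tumors.

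**Figure D4:**
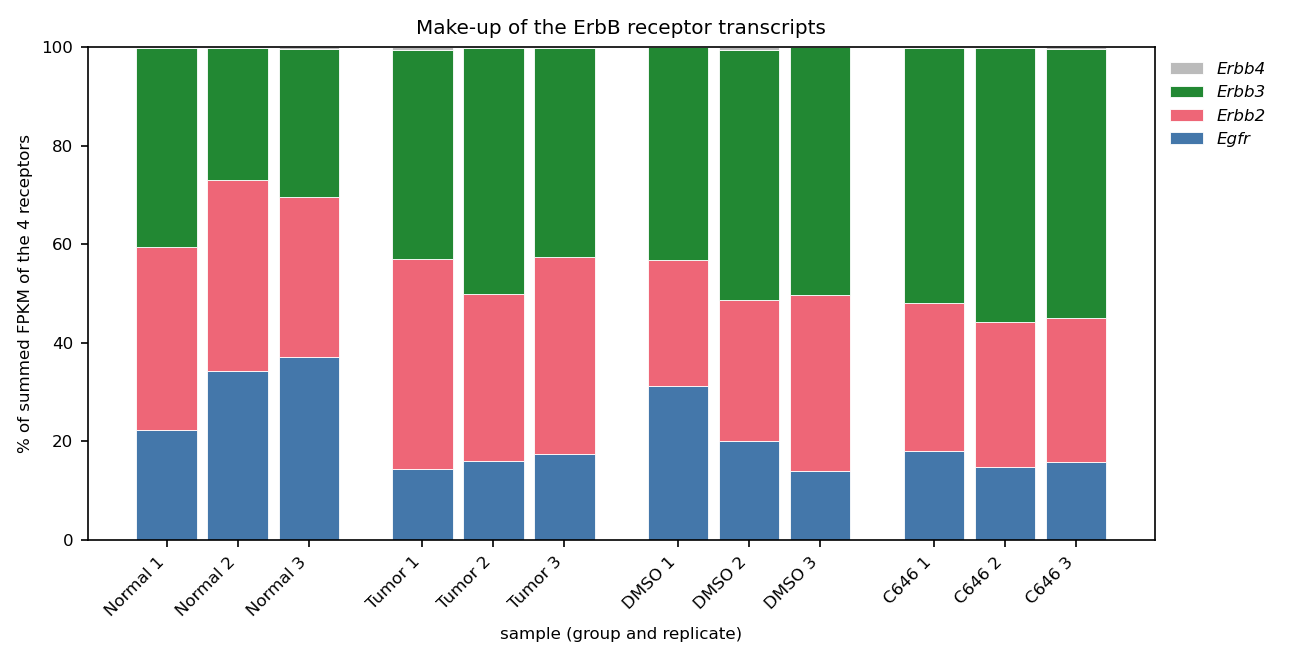
Share of each ErbB receptor in the summed FPKM of the 4 receptors (vertical axis, percent) in each of the 12 samples. Egfr (blue) was smaller in each untreated tumor than in any normal gland, DMSO replicate 1 stood out with 31.1% Egfr, and Erbb4 (grey) never exceeded 0.546%.

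The order of the 10 genes differed between the tissues. In the normal glands Erbb2, Erbb3 and Egfr overlapped at mean levels of 6.55, 6.12 and 5.46 FPKM, followed by Btc, Hbegf and Tgfa, which overlapped at 1.51, 1.28 and 1.04. In the untreated tumors Erbb3 and Erbb2 overlapped at 17.2 and 15.1 FPKM and lay above Egfr at 6.14 in all samples, and below Egfr the ligands Hbegf, Tgfa, Egf and Btc each overlapped with the next. In the C646 tumors Erbb3, Erbb2 and Egfr were separate, at 35.8, 19.5 and 10.8 FPKM, and Tgfa overlapped with Egfr at 10.01. In the DMSO tumors Erbb3 at 30.6 FPKM overlapped with Tgfa at 23.6, and neighbours in the order overlapped down to Nrg1. Tgfa, Hbegf and Egf each varied more than 5-fold among these 3 tumors.

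The rest of the pathway held calls in both directions between Normal and Tumor, to be read against the 28.8% of all genes called higher and 31.7% called lower. Nothing particular to the ligand processing genes, the Ras, MAP kinase and Akt core or the negative regulators is read from their counts beside these shares. Of 8 matched genes for ligand processing, 3 were called higher, 1 lower and 4 were not called. The inactive rhomboids Rhbdf1 and Rhbdf2, which carry the sheddase Adam17 to the cell surface, rose from 28.0 ± 5.23 to 69.1 ± 14.2 FPKM (limma, adjusted p = 0.0016) and from 9.65 ± 1.10 to 30.8 ± 17.3 FPKM (adjusted p = 0.0089; SD, n = 3 for each). The rhomboid protease Rhbdl2 rose from 1.06 to 2.18 FPKM. Adam12, a metalloprotease that can shed Hbegf, fell from 4.92 to 0.480 FPKM, with a log2 difference of -3.28, and as it reached 1 FPKM in the normal glands only it could not be called higher. The median log2 difference of the 8 genes was 0.17, against -0.016 over all genes tested.

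Of 15 adaptors and PI3 kinase genes, 2 were called higher and 7 lower, with a median log2 difference of -0.36, where 28.8% and 31.7% of all genes were called. Ptpn11, the phosphatase that passes receptor signals on to Ras, fell from 35.9 ± 4.04 to 16.2 ± 2.58 FPKM, the exchange factor Sos2 from 6.39 to 2.86 and the catalytic subunit Pik3ca from 9.92 to 4.65. The regulatory subunit Pik3r1 rose from 36.8 to 67.4 FPKM.

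Of the 15 genes of the Ras, MAP kinase and Akt core, 2 were called higher and 5 lower, and their median log2 difference was -0.0070. Hras rose from 30.6 ± 2.27 to 518 ± 210 FPKM (SD, n = 3; limma, adjusted p = 6.9e-05), with 287, 570 and 696 FPKM in the 3 untreated tumors. The 6 injected tumors had 31.5 to 50.03 FPKM of Hras, close to the 28.4 to 32.9 of the normal glands, although their tables were normalized separately. The kinase Akt2 fell from 102 to 26.6 FPKM.

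Among 16 negative regulators, 5 were called higher, 3 lower and 8 were not called, with a median log2 difference of 0.044. The ubiquitin ligases Cbl and Cblb, which send activated Egfr to degradation, fell from 6.21 ± 0.358 to 1.35 ± 0.496 FPKM and from 8.19 ± 0.373 to 1.91 ± 0.496. The MAP kinase phosphatase Dusp5 rose from 6.51 to 24.4 FPKM and Spry2 from 7.76 to 19.6.

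Most of the genes that growth factor signals induce were higher in tumors. Of 15 genes, 13 were tested, 10 were called higher and 2 lower, against 28.8% and 31.7% of all genes, and the median log2 difference of those tested was 1.23, against -0.016 over all genes. Phlda1 rose from 22.9 ± 12.0 to 260 ± 28.4 FPKM (SD, n = 3; limma, adjusted p = 1.8e-04), Ier3, an early response gene, from 17.8 to 173, and the ETS factor Etv5 from 7.57 to 39.2. Egr2 fell from 5.09 to 1.10. These genes respond to many kinases besides the ErbB receptors.

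The genes beside Erbb2 on chromosome 11, which are co-amplified with it in human tumors, were examined as a group of 8. Of 6 tested, 4 were called higher and 1 lower, where 28.8% and 31.7% of all genes were called. The remaining one, Grb7, named after its value was seen, had 13.0 FPKM in normal glands and 21.1 in tumors (limma, adjusted p = 0.14). Pgap3 rose from 4.66 to 15.1 FPKM and Mien1 from 109 to 240, where Mien1 overlaps the last 9 bases of Erbb2 on the other strand and the libraries did not keep the strand. Tcap, a muscle gene, rose from 1.68 to 116 FPKM and was highest in Tumor replicate 1, which also had the highest muscle marker sum. Ikzf3, a lymphocyte gene, fell from 12.1 to 0.062 FPKM, as the lymphocyte markers did, and reached 1 FPKM in the normal glands only.

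In the second comparison 0 of the 8 members tested were called between C646 and DMSO. Over all 12083 genes the share called was 0% (limma), with 384 genes or 3.18% at an unadjusted p under 0.05, and none of these 384 was a member. Each of the 8 members overlapped between the groups. Erbb4 and Ereg were under the filter.

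Erbb2 and Erbb3 were the most even members across the injected tumors. Erbb2 had 17.4, 19.3 and 20.1 FPKM after DMSO and 20.7, 17.8 and 20.1 after C646, a log2 difference of 0.046 with a 95% interval from -0.26 to 0.35. Erbb3 had 29.3, 34.2 and 28.2 FPKM after DMSO and 36.0, 33.8 and 37.6 after C646, a difference of 0.23 with an interval from -0.064 to 0.53 (limma, adjusted p = 0.99 for each). A 2-fold change in either direction lies outside both intervals.

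Egfr had 21.1, 13.4 and 7.90 FPKM after DMSO and 12.5, 8.98 and 10.8 after C646. All 3 C646 tumors lay between the highest and the lowest DMSO tumor. The log2 difference was -0.29 with a 95% interval from -1.12 to 0.53 (limma, adjusted p = 0.99), and it was 0.050 without DMSO replicate 1.

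Tgfa had 49.9, 6.74 and 14.3 FPKM after DMSO and 13.4, 9.41 and 7.19 after C646. The interval of its log2 difference ran from -2.40 to 0.80 around -0.80, and the difference was -0.019 without DMSO replicate 1 and -1.46 without DMSO replicate 2. In this experiment Tgfa had 2 rows, which were summed, and both were highest in DMSO replicate 1, with 21.0 and 28.9 FPKM.

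Hbegf had 10.1, 1.90 and 4.75 FPKM after DMSO and 3.45, 2.05 and 1.83 after C646, a log2 difference of -0.93 with an interval from -2.35 to 0.48, which was -0.35 without DMSO replicate 1 and -1.55 without DMSO replicate 2. Btc had 3.37, 2.85 and 2.06 FPKM and then 2.21, 2.60 and 2.59, a difference of -0.13. Neither ligand separated the groups, and the adjusted p was 0.99 for both (limma).

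Egf had 5.24, 6.43 and 0.677 FPKM after DMSO and 3.53, 3.86 and 4.08 after C646. Its log2 difference was 0.41 with an interval from -1.47 to 2.30, and it turned to -0.60 without DMSO replicate 3. That tumor also stood apart in its basal markers, which summed to 749 FPKM there and to 102 to 131 in the other 5 injected tumors. Of the 749 FPKM, 382 came from Krt14, which in this experiment stood in a row joined with Krt16.

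Nrg1 had 0.896, 2.75 and 1.12 FPKM after DMSO and 3.73, 0.532 and 1.18 after C646. The C646 group held both the highest and the lowest value, and the log2 difference of -0.072 had an interval from -1.90 to 1.76. Ereg had 0.041, 0.077 and 0.090 FPKM after DMSO and was listed at 0 in C646 replicates 1 and 3, with 0.034 in replicate 2. Its groups did not overlap (exact two-sided permutation p = 0.1, the smallest possible), at levels where the counting error is unknown, and 4.52% of all genes tested were lower without overlap. Erbb4 had 0.044, 0.367 and 0.034 FPKM and then 0.091, 0.18 and 0.238.

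The other ligands overlapped as well. Nrg2 had 22.2, 14.2 and 4.91 FPKM after DMSO and 9.82, 12.7 and 9.52 after C646, and Areg had 1.09, 2.53 and 1.29 and then 1.12, 0.893 and 4.16. Tgfa led the ligand pool in DMSO replicates 1 and 3 and C646 replicate 1, with 53.2%, 46.3% and 34.8%, and Nrg2 led in the other 3 tumors. Nrg4 and Areg together held 1.88% to 16.8% in the injected tumors.

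The receptor shares of the injected tumors were tested in the same way. Erbb3 held 43.2%, 50.8% and 50.2% after DMSO and 51.9%, 55.6% and 54.7% after C646, a difference of 6.01 percentage points without overlap. The exact two-sided permutation test gave p = 0.1, the smallest it can give, and 0.4 after adjustment over the 4 receptors, and without DMSO replicate 1 the difference was 3.57 points. Egfr held 31.1%, 20.0% and 14.03% and then 18.02%, 14.8% and 15.7% (exact p = 0.4), and Erbb2 30.0% ± 5.18 and 29.5% ± 0.374 (SD, n = 3; exact p = 1).

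DMSO replicate 1 stood apart from the other injected tumors for some genes of the pathway, a pattern noticed after the values were seen. It was the highest of the 6 tumors for 33 of 78 members and pathway genes tested, or 42.3%, against 25.7% of all 12083 genes. It was highest for 4 of the 8 members, Egfr, Tgfa, Hbegf and Btc, and for 12 of the 16 negative regulators or 75%. In the opposite direction it was lowest for 10 of the 78 genes, against 2944 of all 12083. Among the 10 were the response genes Jun, Egr1, Ier2, Egr2 and Egr3, with 51.5 FPKM of Jun against 66.9 to 87.0 in the others. The response genes were split, as Ier3, Etv4, Etv5, Ccnd1 and Phlda1 were highest in this tumor. Ier3 had 276 FPKM there against 101 to 171 in the others. Dusp6 had 179 FPKM there and 29.9 to 56.4 in the other 5 tumors, and Spry4 14.05 against 2.71 to 5.62, both of them inhibitors that MAP kinase signalling induces. Grb2, the adaptor that links the receptors to Ras, had 241 FPKM against 32.1 to 36.1. Erbb2 and Erbb3 were not highest in this tumor, and Erbb2 was lowest there, at 17.4 FPKM. DMSO replicate 3 was the lowest of the 6 tumors for 27 of the 78 genes and 4 of the 8 members, against 3094 of all 12083 genes. DMSO replicate 1 also had the lowest adipocyte and fibroblast marker sums of the injected tumors, 12.2 and 215 FPKM, and the part of cell content in its values was not tested.

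**Figure D5:**
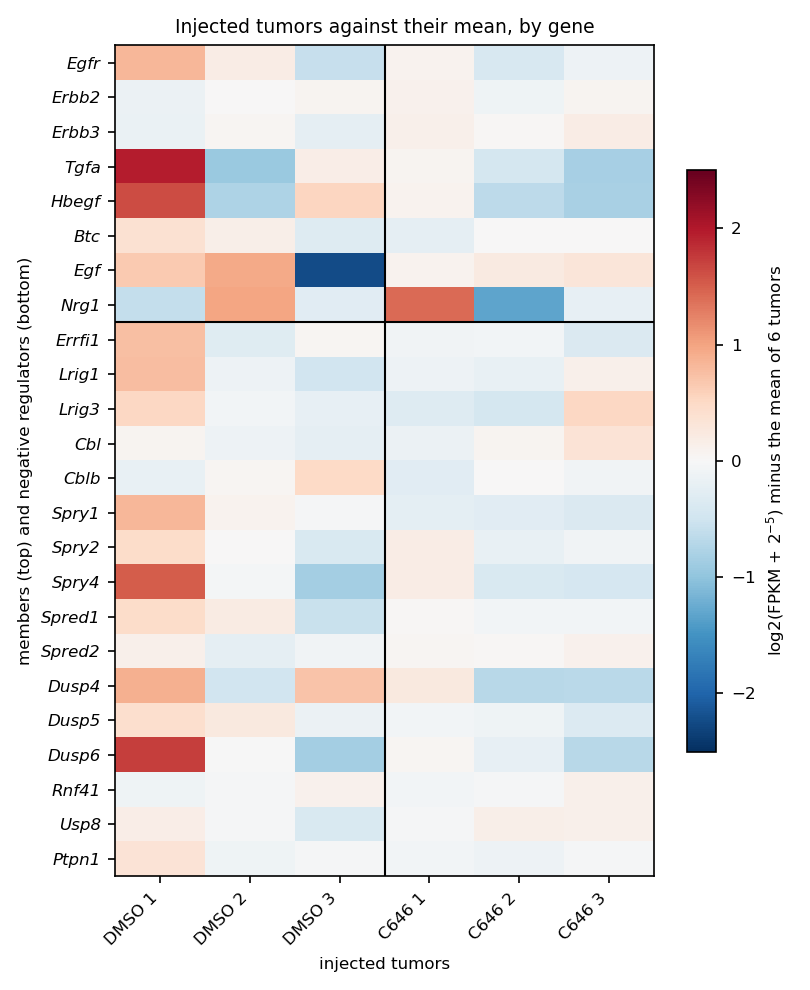
Each cell shows log2(FPKM + 0.03125) of a gene in 1 of the 6 injected tumors minus the mean of the 6, for the 8 members tested (top) and 16 negative regulators (bottom), on a scale from blue (lower) to red (higher). DMSO replicate 1 is red for Tgfa, Hbegf, Spry4 and Dusp6, DMSO replicate 3 is deep blue for Egf, and the rows of Erbb2 and Erbb3 are almost white.

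The pathway lists gave 0 calls after C646 (limma). At an unadjusted p under 0.05, which 3.18% of all genes passed, stood Rhbdl2, Spry1, Fos and Ccnd1, named after their values were seen. All 4 were lower in each C646 tumor than in any DMSO tumor, as 4.52% of all genes tested were. Fos, for example, had a mean of 29.6 against 50.7 FPKM and Ccnd1 50.6 against 74.4. The adjusted p was 0.99 for all 4 (limma), so nothing particular to the pathway is read from them. The adipocyte markers lay in the other direction, with sums of 12.2 to 53.4 FPKM after DMSO and 64.2 to 323 after C646, and their part in these values was not tested.

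The profiles over all 12 samples were also compared, by the root mean square difference of log2(FPKM + 0.03125) after subtracting the mean of each gene, among 11874 genes that reached 1 FPKM in at least 6 samples. The samples share 2 separately normalized tables. Nearest to Erbb2 were Fat1, Tra2a and Adck5, at 0.14, 0.14 and 0.17 on the log2 scale. Nearest to Erbb3 were Shank2, Tom1l1 and Ccdc120, at 0.21, 0.22 and 0.23, and nearest to Egfr were Sel1l, Gnaq and Bbx, at 0.16, 0.17 and 0.17. Among the members themselves, the nearest to Erbb3 was Erbb2, at rank 275, and the nearest to Egfr was Btc, at rank 249. The nearest to Erbb2 was Erbb3, only at rank 1525. Tgfa, for example, ranked 9890 in likeness to Egfr and 9898 in likeness to Erbb2. Erbb4 was too low to compare.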

How the data were processed

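Per the labels and the methods of the study, the authors trimmed adaptors with Cutadapt, mapped the reads of non-directional poly-A libraries to mm10 with TopHat2 2.1.1 and computed FPKM per gene with Cufflinks 2.2.1. The deposited tables, 1 per sample, list FPKM by gene name, with 26220 rows in the first experiment and 24304 in the second, so tests were run within an experiment only. FPKM are not counts, and depth is not in the files.

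Rows without a name (1837 in the first experiment) were dropped and repeated names summed. limma 3.58.1 in R 4.3.3 (lmFit, eBayes with trend) was run on log2(FPKM + 0.03125), keeping genes that reached 1 FPKM in 3 or more of 6 samples, with Benjamini-Hochberg adjustment at 0.05, and it was tested on simulated data. Fold changes of low genes are understated on this scale. Shares of 3 against 3 samples were compared by exact two-sided permutation tests over 20 arrangements. Python 3.11.15 with pandas 2.3.3, scipy 1.17.1 and matplotlib 3.10.9 was used for the rest. Gene positions came from GENCODE annotation of GRCm38, the build of mm10, and promoters from RefSeq.

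The members and gene lists were chosen with earlier results of these data known. Named were all members, the other 5 ligands, at most the 4 called genes with the largest change per pathway list, and the 3 genes nearest to each receptor. Nrdc of the ligand processing list was not matched. Besides Erbb3, rows joined with another gene were used for Ccnd1 and Pdgfra in both experiments. In the second experiment they were also used for Krt14, Egfl7 and Lyz2. A few genes that this rule would name are not reported here. Replicates were separate tumors or pools of mice. The alternatives were other pseudocounts (0.25 and 1), no filter, median ratio scaling, quantile normalization, the highest row of a repeated name, robust eBayes, a replicate block and leaving out each replicate. Scaling to the luminal marker sum was added after seeing the data.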

Additional observations from a re-analysis of the deposited data

How the results depend on the processing

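Of the alternatives set at the start, 373 values were rated as unchanged. For a tested gene this meant the same direction and the same side of the threshold. For a count it meant a similar size, for a receptor share the same sign only, and for a gene under the filter a value close to the main one. The replicate block and the highest row of a repeated name could not change a receptor share, so those ratings were fixed in advance. Leaving out 1 replicate at a time left between 3 and 5 members called higher in tumors (3 without Normal replicate 1 or 2, where Tgfa and Hbegf lost their calls) and between 0 and 11 genes called lower after C646, the 11 without DMSO replicate 2. Without Tumor replicate 3 Hbegf had a log2 difference of 0.87 and lost its call. Btc turned to 0.49 in tumors under quantile normalization, which moved the median of all genes by 0.13 and the higher share of calls to 54.4% from 47.7%. After C646, where none of these values passed the threshold, Nrg1 turned to 0.021 with a pseudocount of 1. With 1 replicate left out the log2 differences after C646 ran from -0.66 to 0.050 for Egfr, -0.013 to 0.11 for Erbb2, -1.46 to -0.019 for Tgfa, -1.55 to -0.35 for Hbegf, -0.33 to 0.023 for Btc, -0.60 to 0.99 for Egf and -0.80 to 0.57 for Nrg1. The value above 0 for Egfr and those turned in sign for Erbb2 and Btc came without DMSO replicate 1, that below 0 for Egf without DMSO replicate 3, and those above 0 for Nrg1 without DMSO replicate 2 or C646 replicate 2 or 3. The difference in the Erbb2 share after C646 was 0.638 points between group medians and ran from -2.71 to 2.34 when 1 replicate was left out. That in the Erbb4 share ran from -0.0839 to 0.127 points in the first comparison and from -0.0476 to 0.195 in the second.

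Scaling to the luminal marker sum, added after seeing the data, left 0 members called higher and 6 lower in tumors, at -2.33 for Egfr, -1.29 for Erbb2, -0.91 for Erbb3, -1.08 for Tgfa, -1.20 for Hbegf, -2.83 for Btc and -0.079 for Egf, and Nrg1 at 0.050 after C646. It moved the median of all genes by -2.50, with 90.2% of them called lower and 2.21% higher. For the other changes the cause was not tested.

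The replicate numbers were not treated as pairs in the main fits. The correlation of same-numbered deviations was -0.04, -0.10 and 0.01 in the first comparison and 0.17, 0.07 and 0.11 in the second. For different numbers it ran from -0.06 to 0.09 in the first comparison and from -0.23 to 0.14 in the second. With 3 samples per group these correlations cannot show whether samples were paired. With a replicate block 5 members were called higher in tumors and 0 after C646, with 3439 genes higher and 3827 lower in tumors. With 3 samples per group and no depth in the files, genes near 0 FPKM such as Erbb4 and Ereg, and fold changes in the variable DMSO group, are limited in precision.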
